A study of Mus musculus with 12 samples.

Results

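Rab GTPases were described in bone marrow-derived macrophages, primary phagocytes grown from mouse marrow, after knockdown of Ehd1 and after treatment with lipopolysaccharide (LPS). Genes were taken as Rab members when their symbol was Rab followed by a number and at most 1 letter and when at least 10 counts were present in at least 3 of the 12 libraries. This gave 44 members out of 59 matching symbols and 24421 genes. The libraries came from male C57BL/6J mice aged 8 weeks and fell into 4 groups of 3, which were LPS-treated cells (M1 in the labels) with an siRNA against Ehd1 (siEhd1), LPS-treated cells with a control siRNA (siControl), resting cells (M0) with siEhd1 and resting cells with siControl. All 4 groups had received an siRNA, so no untransfected cells were compared. How much LPS was used and for how long, and which siRNA sequences, the labels do not say. They also do not say whether the 3 libraries of a group came from separate animals or cultures, so the p-values reflect library-to-library spread that could be technical only.

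Rab proteins are small GTPases that mark membrane compartments. Guanine nucleotide exchange factors (GEFs) load them with GTP, GTPase-activating proteins (GAPs) switch them off, escort proteins and a geranylgeranyl transferase attach the lipid that holds them on membranes, and effectors bind the GTP-bound form to tether, move or fuse vesicles. Rab5 proteins act on early endosomes, Rab4 and Rab11 proteins on recycling routes, Rab7 on late endosomes and lysosomes, and Rab1, Rab2 and Rab6 proteins between the endoplasmic reticulum (ER) and the Golgi. Ehd1 encodes an ATPase that shapes and cuts recycling endosome membranes, and the Rab4 and Rab5 effector rabenosyn-5, the product of Rbsn, is among the proteins it is known to bind. In macrophages these routes serve phagosome maturation, antigen handling and the delivery of cytokines and Toll-like receptors.

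Library totals ranged from 18572725 to 22545272 counts, and 12164 genes, all 44 Rab members among them, passed a filter on low counts and were tested. Levels are in CPM, counts relative to a library total scaled by TMM factors (a normalisation that takes most genes as unchanged), as mean ± SD over 3 libraries. Ehd1 itself averaged 301.8 ± 18.2 CPM with siEhd1 against 619.7 ± 64.5 with siControl in LPS-treated cells, and 31.5 ± 2.35 against 53.2 ± 1.18 in resting cells. All 8 listed macrophage markers passed the filter, and the listed neutrophil, dendritic, lymphocyte, and mast and erythroid markers summed to at most 4.70 CPM in any library. Stromal and endothelial markers summed to 14.4 to 46.6 CPM over all libraries, and in resting cells to 14.4 to 21.3 CPM with siEhd1 against 26.9 to 27.7 with siControl. The platelet list, with 2 members past the filter, summed to 560.1 to 621 CPM with siEhd1 and 407 to 519 with siControl after LPS, and to 18.4 to 18.7 and 8.80 to 10.3 CPM in resting cells. Gp1bb of that list had no counts in any group. Summed macrophage markers lay between 19637 and 20987 CPM with siEhd1 and between 23635 and 24298 CPM with siControl in resting cells, where 5 of the 8 markers were called lower, beside 14.2% of all genes. After LPS they overlapped, at 35192 to 36901 CPM with siEhd1 and 32175 to 38654 with siControl, and 1 of the 8 was called lower, beside 4.1%. The part of these marker differences in the Rab values was not tested. Fewer cells of a type, less RNA per cell and a change of the marker genes themselves cannot be told apart in bulk libraries. Resting and LPS-treated libraries were deposited in separate tables, so LPS and any difference in handling cannot be told apart.

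The 44 members comprised 7 early endosomal, 7 recycling, 7 late endosomal and 18 secretory genes, of which 11 act between ER and Golgi and 7 in exocytosis, and 5 others (Rab23, Rab24, Rab28, Rab40c and Rab42). The members nearest the threshold were Rab42, which had 10 or more counts in 4 libraries and at most 12, and Rab33a, which did so in 6 libraries with at most 14. Just outside it lay Rab36, with 10 or more counts in 2 libraries and at most 17, and Rab15, Rab38 and Rab44, in 1 library each. The other symbols left out were Rab17, Rab25, Rab26, Rab30, Rab37, Rab39b, Rab3b and Rab40b, with at most 9 counts in any library, and Rab3c, Rab27b and Rab9b, which had 0 counts in all 12.

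A short 3′ UTR sequence is shown because it was found in a larger share of the Rab genes that were lower with siEhd1 than of the others. The heptamer GCCTTGT is known from an earlier look at these same libraries, so its link to lower levels is not independent evidence. Small interfering RNAs are known to lower unintended transcripts whose 3′ UTR pairs with their seed, the bases near the 5′ end of a strand. The heptamer was found in the annotated 3′ UTR of 8 of the 44 members, at 9 sites. Sites are given 5′ to 3′ with flanks as 29-base windows of the GENCODE vM21 transcripts, with the heptamer in capitals, on GRCm38 (mm10). The windows lie at chr10:128678001-128678029 (minus strand) for Rab5b, chr17:53507437-53507465 (plus) for Rab5a, chr6:87792125-87792153 (minus) for Rab43, chr9:66847552-66847580 (minus) for Rab8b, chr1:131714945-131714973 (plus) for Rab7b, chr10:115289102-115289130 (minus) for Rab21, chr2:173702721-173702749 and chr2:173706595-173706623 (both plus) for Rab22a, and chr9:53684900-53684928 (minus) for Rab39.
Rab5b: gcctcacaactGCCTTGTatcatcagagg
Rab5a: ataatcttgaaGCCTTGTtttttgaagtc
Rab43: actggtgccgaGCCTTGTcccggggaggc
Rab8b: agtggattccaGCCTTGTggcctagcaaa
Rab7b: acccaagagcaGCCTTGTgtgcactctct
Rab21: aactgaacttaGCCTTGTcttctctgagc
Rab22a, site 1: gcctgaacgagGCCTTGTaaaacagctca
Rab22a, site 2: gaaccccccagGCCTTGTaggagggcagt
Rab39: cactctgggagGCCTTGTggacctcaaac

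Compared per kilobase of exon, Rab7 and Rab5c were the most abundant Rab transcripts in every group. Rab7, which drives late endosome and lysosome fusion, stood at 253 ± 15.4 CPM per kb in LPS-treated and 223 ± 10.8 in resting siControl cells. Rab5c, 1 of 3 paralogs that act in early endosome fusion, stood at 262 ± 18.5 in LPS-treated and 153 ± 6.51 in resting siControl cells. Rab7 and Rab5c were apart by more than their SDs in resting cells and within them in LPS-treated cells. Rab8b, a post-Golgi Rab, was the third in resting siControl cells at 116 ± 3.03 CPM per kb, followed by Rab1b, which acts in ER to Golgi transport, at 95.5 ± 4.51, Rab31 at 80.9 ± 1.37 and Rab7b at 80.4 ± 4.32. Rab31 and Rab7b differed by less than their SDs. In LPS-treated siControl cells the late endosomal and lysosome-related Rab32 was the fifth at 109.9 ± 3.82 CPM per kb, within the SD of Rab8b at 110.1 ± 2.21, whereas in resting siControl cells it ranked 20 at 22.1 ± 0.787. Rab27a, Rab33a and Rab42 were below 1 CPM per kb in all 4 groups.

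**Figure D1:**
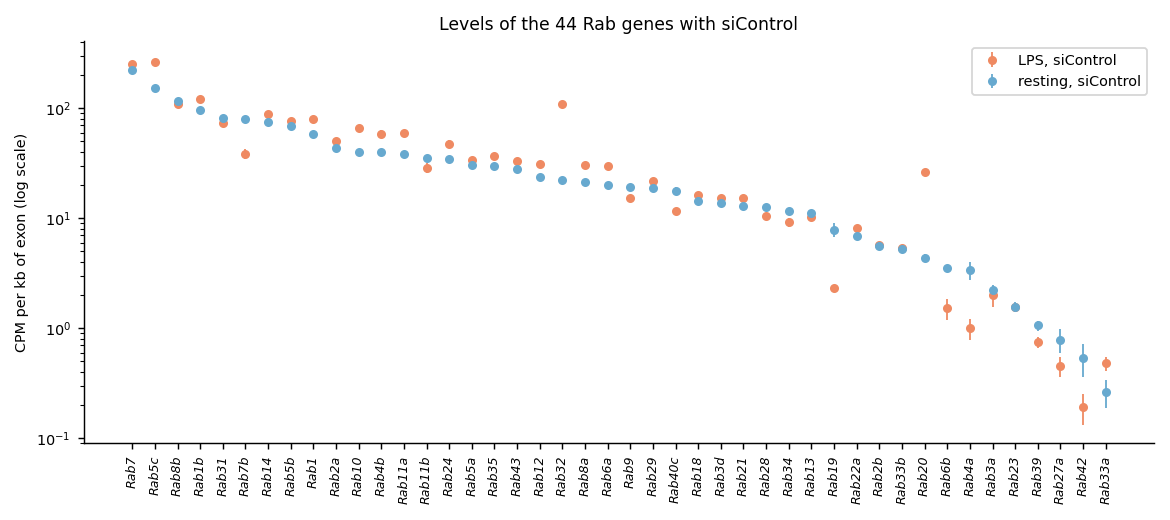
Levels of the 44 Rab genes in siControl cells in CPM per kb of exon on a log axis, LPS-treated and resting, ordered by the resting level. Points are means and bars SDs of 3 libraries; Rab32, at 109.9 and 22.1 CPM per kb, and Rab20 stand well above their resting points after LPS.

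Rab7, Rab5c and Rab1b had the highest levels per kilobase averaged over the 4 groups, with Rab8b above Rab1b in resting siControl cells alone. Rab7 had 779, 755 and 723 CPM in LPS-treated siEhd1 libraries, against 695, 670.1 and 616 in LPS-treated siControl libraries, and 616, 631 and 571 in resting siEhd1 libraries, against 558, 573 and 613 in resting siControl libraries. Its siEhd1 and siControl values did not overlap after LPS (log2 fold change 0.19 ± 0.060 SE, adjusted p = 0.0563) and overlapped in resting cells. Of its exonic 50-mers, 11.2% also occur in other genes such as the pseudogene Rab7-ps1. Rab5c had 550.1, 597 and 537 CPM in LPS-treated siEhd1 libraries, against 538, 537 and 474 in LPS-treated siControl libraries, and 306, 325 and 314 in resting siEhd1 libraries, against 292, 296 and 316 in resting siControl libraries. Every LPS-treated library lay above every resting library, while the siRNA groups overlapped. Rab1b had 243, 256 and 251 CPM in LPS-treated siEhd1 libraries, against 257, 248 and 220.3 in LPS-treated siControl libraries, and 215, 224 and 210.5 in resting siEhd1 libraries, against 186, 187 and 202 in resting siControl libraries. Its siRNA groups overlapped after LPS and were apart in resting cells.

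As a share of unscaled library totals the Rab genes together took 0.499% ± 0.00669 of all counts in LPS-treated siEhd1 cells and 0.499% ± 0.00579 in LPS-treated siControl cells, against 0.489% ± 0.00445 in resting siEhd1 cells and 0.493% ± 0.00616 in resting siControl cells. On that scale the ranges overlapped in each of the 4 comparisons. On the TMM-scaled sizes used for CPM the states were apart: summed Rab levels were 5244 to 5461 CPM in LPS-treated siEhd1 libraries, against 4452 to 4623 in resting siEhd1 libraries, and 5203 to 5493 in LPS-treated siControl libraries, against 4557 to 4762 in resting siControl libraries. The siRNA groups overlapped on either scale. Shares within the Rab counts do not depend on library scaling. They add up to a fixed total, so a lower share of some members goes with a higher share of others. Early endosomal members held 23.1% ± 0.485 of Rab counts with siEhd1 and 24.1% ± 0.385 with siControl after LPS, where the ranges just overlapped, and 20.8% ± 0.314 and 22.1% ± 0.201 in resting cells, without overlap. Late endosomal members held 23.01% ± 0.347 with siEhd1 and 21.3% ± 0.0774 with siControl after LPS, without overlap, and 24.0% ± 0.629 and 23.1% ± 0.574 in resting cells, with overlap. Most of the difference after LPS lay in Rab7, which alone held 13.99% ± 0.328 with siEhd1 and 12.3% ± 0.417 with siControl. No late endosomal member was called with siEhd1 by edgeR. Recycling members held 15.3% ± 0.310 with siEhd1 and 15.5% ± 0.202 with siControl after LPS, with overlap. In resting cells they held 16.3% ± 0.175 and 15.6% ± 0.151, without overlap. Secretory members held 35.9% to 37.6% in all 12 libraries. Within them, exocytosis members summed to 941 to 960 CPM with siEhd1 and 969 to 983 with siControl after LPS. In resting cells they summed to 764 to 810 and 852 to 895 CPM, without overlap in either state. Rab8b alone averaged 450 CPM with siEhd1 and 551 with siControl in resting cells. Sums of the ER and Golgi members overlapped between the siRNA groups in both states.

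The comparison of siEhd1 with siControl asks which Rab genes change when Ehd1 is knocked down. In resting cells Rab5b, Rab5a, Rab20, Rab31, Rab8b, Rab13, Rab19 and Rab43 were lower with siEhd1, and Rab4a, Rab6a, Rab1b and Rab10 were higher. The counts of 8 lower and 4 higher members stand beside 14.2% of all tested genes lower and 14% higher, or 28.2% in either direction. As shares of the 44 members, the calls are near that background, and the members' median log2 fold change was -0.02, as was that of all genes. In LPS-treated cells Rab5b, Rab5a, Rab31 and Rab43 were lower and Rab22a was higher, beside 4.1% of all genes lower, 4.44% higher and 8.54% in either direction; the members' median was -0.02 and that of all genes 0.00. No called member changed 2-fold. With library totals in place of TMM factors, 6 members were called higher in resting cells and 7 lower. All genes also leaned higher on that scale, with 2005 called higher and 1363 lower of 12164.

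Among the early endosomal members, 4 of 7 were lower in resting cells and 3 of 7 were lower and 1 higher in LPS-treated cells. Beside these stand 14.2% of all genes lower in resting cells, and 4.1% lower and 4.44% higher after LPS. Rab5b had 182.5, 194 and 177 CPM in LPS-treated siEhd1 libraries, against 248, 238 and 244 in LPS-treated siControl libraries. In resting cells it had 159.8, 178 and 165 CPM with siEhd1, against 224, 214 and 221 with siControl. All siEhd1 libraries lay below all siControl libraries of the same state. With siEhd1, Rab5b was lower by 24.2% in LPS-treated cells (log2 fold change -0.40 ± 0.053 SE, adjusted p = 5.37e-05) and by 23.6% in resting cells (-0.39 ± 0.053, adjusted p = 1.35e-05). It was called under all 13 alternatives in both states. Its gene lies at chr10:128677175-128696264 (minus strand), and 13% of its exonic 50-mers also occur in the predicted gene Gm13991, so reads could be split between them.

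The 3 Rab5 paralogs are close in function, and Rab5a and Rab5b were both called lower whereas Rab5c was not called. Rab5a was lower by 15.1% with siEhd1 in LPS-treated cells (-0.24 ± 0.063, adjusted p = 0.0217), at 61.9 to 71.6 CPM against 74.9 to 86.1 with siControl. It fell by 12.9% in resting cells (-0.20 ± 0.063, adjusted p = 0.0224), with 61.8 to 64.0 CPM against 69.6 to 75.2. The Rab5a call was lost under 5 of 13 alternatives after LPS, among them leaving out siControl replicate 2 or 3 or siEhd1 replicate 3. It was lost under 4 of 13 in resting cells, which were library totals (adjusted p = 0.0528) and leaving out siControl replicate 3 or siEhd1 replicate 1 or 2. Rab5c had log2 fold changes of 0.12 ± 0.059 after LPS and 0.07 ± 0.060 in resting cells and was not called in either (adjusted p = 0.249 and 0.449). As a share of the counts of the 3 paralogs, which no library scaling touches, Rab5b held 22.7% ± 0.166 with siEhd1 against 29.01% ± 1.21 with siControl after LPS. In resting cells Rab5b held 30.7% ± 0.654 with siEhd1 against 37.1% ± 1.09 with siControl. Rab5c held 69.0% ± 0.417 against 61.4% ± 2.10 after LPS and 57.8% ± 0.226 against 50.8% ± 0.884 in resting cells. The siEhd1 and siControl libraries did not overlap in either share. The shares add up to a fixed total, so the higher Rab5c share and the lower Rab5b share are not separate results.

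Rab31, which links the trans-Golgi network to endosomes, had 239.7 to 246 CPM with siEhd1 and 259 to 303 with siControl after LPS (-0.21 ± 0.054, adjusted p = 0.0203), a call lost under 6 of 13 alternatives, among them leaving out siControl replicate 1 or 2 or siEhd1 replicate 1 or 3. In resting cells it had 263 to 275 CPM with siEhd1 and 303 to 314 with siControl (-0.19 ± 0.054, adjusted p = 0.0131), a call lost without siEhd1 replicate 1. Rab22a, which acts between early endosomes and recycling tubules, had 64.8 to 65.5 CPM with siEhd1 and 56.4 to 59.3 with siControl after LPS (0.16 ± 0.049, adjusted p = 0.0449), a call lost under 10 of 13 alternatives. Rab20, a phagosome and early endosome Rab, had 4.66, 4.74 and 4.90 CPM with siEhd1 and 6.16, 5.57 and 6.58 with siControl in resting cells, without overlap (-0.36 ± 0.106, adjusted p = 0.0155). That call was lost without resting siControl replicate 3 or siEhd1 replicate 1 (-0.30 and -0.34). Rab21 had log2 fold changes of 0.16 ± 0.059 after LPS and 0.03 ± 0.060 in resting cells and passed the test in neither.

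**Figure D2:**
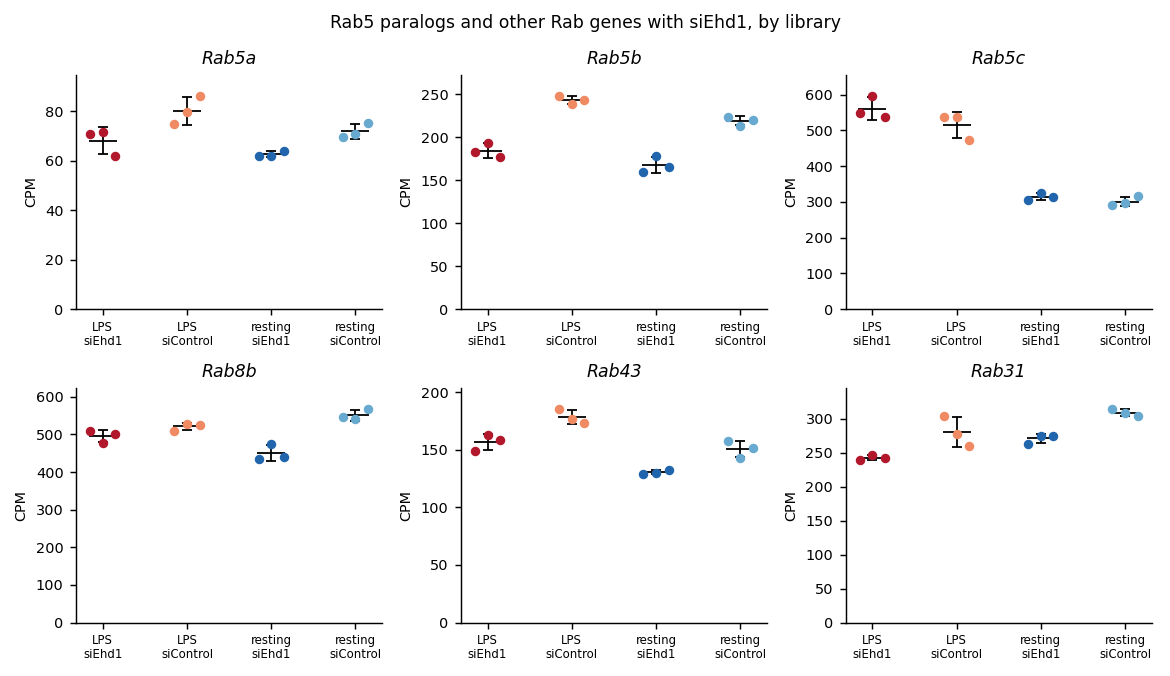
CPM of 6 Rab genes by library in the 4 groups, with siEhd1 left of siControl in each state; points are libraries, and the line and bars are mean and SD of 3. Rab5b is lower with siEhd1 in both states (182.5, 194 and 177 against 248, 238 and 244 CPM after LPS), while Rab5c is not.

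Among the recycling members, 1 of 7 was called with siEhd1 in resting cells and 0 of 7 after LPS, beside 28.2% and 8.54% of all genes. Rab4a, which acts in fast recycling to the plasma membrane, had 9.14, 8.28 and 8.30 CPM with siEhd1 and 5.02, 5.66 and 7.11 with siControl in resting cells, without overlap (0.53 ± 0.132, adjusted p = 0.00487). After LPS it had 2.46, 2.52 and 2.07 CPM with siEhd1 and 1.38, 1.74 and 2.14 with siControl, with overlap (0.42 ± 0.205, adjusted p = 0.238). Its paralog Rab4b had a log2 fold change of -0.07 ± 0.056 after LPS and 0.00 ± 0.058 in resting cells. The Rab11 paralogs, which direct the slow route through the recycling compartment where Ehd1 acts, were not called: Rab11a had 0.03 ± 0.055 after LPS and 0.12 ± 0.056 in resting cells (adjusted p = 0.815 and 0.104), and Rab11b had -0.05 ± 0.073 and -0.13 ± 0.072. With library totals in place of TMM factors Rab11a and Rab35 were called higher in resting cells, each at 0.15. Rab35, which partners the Ehd1-linked recycling machinery, had 0.08 ± 0.053 after LPS and 0.13 ± 0.054 in resting cells (adjusted p = 0.393 and 0.0862). Rab12 and Rab14 were likewise not called, with adjusted p from 0.108 to 0.858 over both states.

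None of the 7 late endosomal members was called with siEhd1 by edgeR in either state, beside 28.2% of all genes in resting cells and 8.54% after LPS. At an unadjusted p under 0.05 there were 0 in resting cells and 1 after LPS, Rab7, at the values given above. Rab7 was called higher with siEhd1 in LPS-treated cells by DESeq2, with library totals (0.19, adjusted p = 0.0262) and without LPS-treated siControl replicate 1. Its adjusted p was 0.0563 in edgeR with TMM factors. Rab7b, a late endosomal Rab known to restrain Toll-like receptor 4 signalling in macrophages, had a log2 fold change of 0.13 ± 0.070 after LPS and -0.03 ± 0.068 in resting cells. Rab32 had -0.09 ± 0.048 after LPS and -0.10 ± 0.053 in resting cells (adjusted p = 0.279 and 0.158). Rab9, Rab29, Rab34 and Rab39 ranged from -0.15 to 0.11 over both states.

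Of the 18 secretory members, 4 were lower and 3 higher with siEhd1 in resting cells, and 1 was lower after LPS. The shares over all genes were 14.2% lower and 14% higher in resting cells and 4.1% lower after LPS. Rab43, which acts at the Golgi and on phagosomes, had 149 to 162 CPM with siEhd1 and 173 to 185 with siControl after LPS (-0.19 ± 0.052, adjusted p = 0.0274) and 129 to 132 CPM with siEhd1 and 143 to 158 with siControl in resting cells (-0.21 ± 0.052, adjusted p = 0.00466). The resting call held under all 13 alternatives, whereas the call after LPS was lost under 7 of 13. Of the exon bases of Rab43, 77.3% overlap the predicted gene Gm45140 on the same strand, so its counts are uncertain. Rab8b had 508, 477 and 502 CPM with siEhd1 and 509, 529 and 525 with siControl after LPS, nearly adjoining, and 436, 475 and 439.9 with siEhd1 and 546, 540 and 567 with siControl in resting cells, well apart. It fell by 18.3% in resting cells (-0.29 ± 0.052, adjusted p = 0.000267), and the difference after LPS was -0.07 ± 0.052 (adjusted p = 0.460). Its paralog Rab8a was not called, with 0.06 ± 0.050 after LPS and 0.08 ± 0.050 in resting cells, and Rab8b made up 81.4% ± 0.835 of the counts of both paralogs with siEhd1 against 85.0% ± 0.425 with siControl in resting cells.

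Rab19, a little-studied Golgi Rab, had 10.5, 8.75 and 9.20 CPM with siEhd1 and 10.5, 12.6 and 14.0 with siControl in resting cells, nearly touching (-0.38 ± 0.107, adjusted p = 0.0110). The call was lost without resting siControl replicate 3 or siEhd1 replicate 2, where the log2 fold changes were -0.28 and -0.33. Rab13, which carries cargo from the trans-Golgi network to the cell surface, fell by 14.7% in resting cells (-0.23 ± 0.076, adjusted p = 0.0286) and had -0.01 ± 0.078 after LPS. Rab6a, which acts in retrograde transport at the Golgi, Rab1b and Rab10, which is known to deliver Toll-like receptor 4 to the surface of mouse macrophages, rose by 13.1%, 12.9% and 10.5% with siEhd1 in resting cells (adjusted p = 0.0195, 0.0288 and 0.0287). These 3 and Rab13 lost their calls under 3 to 7 of 13 alternatives, Rab6a, Rab1b, Rab10 and Rab13 all without resting siControl replicate 1, among others. Of the exon bases of Rab6a, 20.6% overlap Mrpl48 on the other strand, and since the strand setting is not given its counts are uncertain. Rab27a, which docks secretory granules, had 1.49 to 1.79 CPM with siEhd1 and 1.80 to 2.99 with siControl in resting cells (-0.58 ± 0.217, adjusted p = 0.0514). The 5 members of other roles were not called in either state. Rab42 had the largest siEhd1 log2 fold change of all members in LPS-treated cells, 1.51 ± 0.504, at counts of 2 to 10 per library (adjusted p = 0.0697).

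Rab genes that fell with siEhd1 were often those that carry the heptamer shown above. In resting cells 4 of the 8 lower members carried it (Rab5a, Rab5b, Rab8b and Rab43), or 50%, against 0 of the 4 higher members and 4 of the 32 not called, or 12.5%. Over all genes searched the shares were 28.3% of lower, 9.2% of higher and 12.8% of uncalled genes. After LPS 3 of the 4 lower members carried it (Rab5a, Rab5b and Rab43), as did the 1 higher member, Rab22a, and 4 of the 39 not called. Over all genes 50.8% of lower and 13% of uncalled genes carried it. The calls of Rab5a and Rab43 after LPS were lost under 5 and 7 of 13 alternatives. The median log2 fold change was -0.11 over the 8 carriers and -0.02 over the 36 other members after LPS, and -0.13 and 0.01 in resting cells.

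The match was incomplete in both directions. Rab31, Rab13, Rab19 and Rab20 were lower in resting cells without a heptamer in an annotated 3′ UTR, while Rab7b, Rab21 and Rab39 carry 1 site each and were not called. Rab22a carries 2 sites and was higher with siEhd1 in LPS-treated cells. Carriers had longer 3′ UTRs, with a median of 3713 bases over the 8 members that carry it against 1315 over the other 36. Among all genes with a 3′ UTR of 2000 to 4000 bases, 28.6% of carriers and 13.5% of other genes were lower in resting cells, and 15.1% and 2.55% after LPS. Above 4000 bases, where Rab8b and Rab22a lie, the shares were closer, at 26% and 17.1% in resting cells and 9.28% and 1.74% after LPS. The heptamer was not found in the annotated Ehd1 transcript, and its reverse complement occurs there once, before the stop codon. Whether the sites contribute to the lower levels was not tested.

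**Figure D3:**
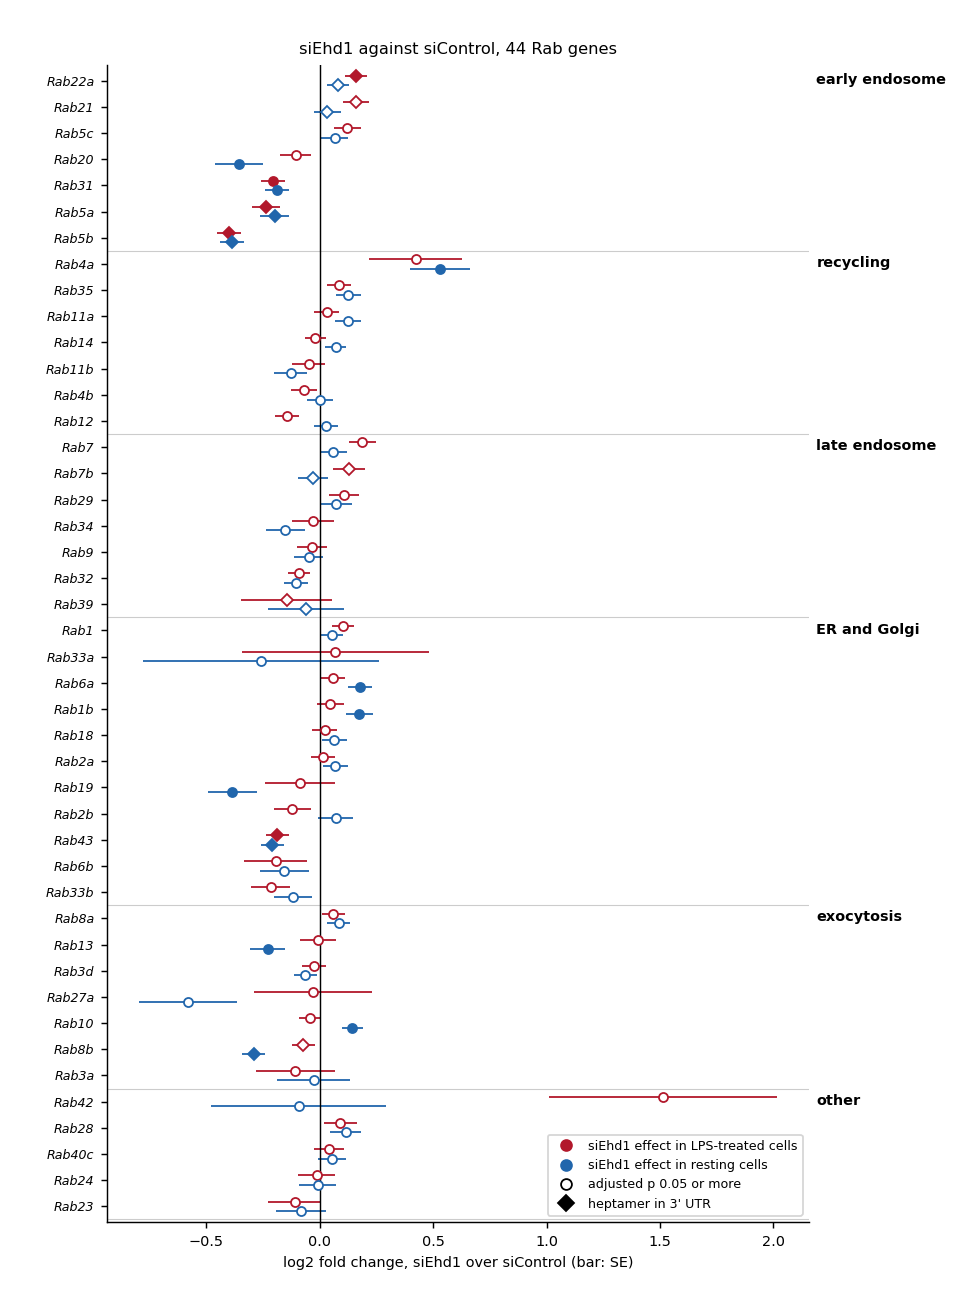
Log2 fold changes of siEhd1 over siControl with SE for the 44 Rab genes by compartment, LPS-treated cells above resting cells in each row; filled symbols passed an adjusted p of 0.05 and diamonds mark genes with the heptamer in a 3′ UTR. Rab5b, at -0.40 and -0.39, is the lowest called gene in both states.

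Whether the siEhd1 effect itself differed between LPS-treated and resting cells was tested as a difference of the log2 fold changes. No member was called by edgeR, beside 6.04% of all genes (3.12% higher and 2.93% lower after LPS). At an unadjusted p under 0.05 there were 4 members, Rab8b, Rab10, Rab12 and Rab42. Rab8b had a difference of 0.22 ± 0.073 (adjusted p = 0.0854), and DESeq2 called it (0.22, adjusted p = 0.0180). Rab10 had -0.19 ± 0.067 (adjusted p = 0.112) and was called with library totals in place of TMM factors. Rab12, which acts in endosome to lysosome sorting, had -0.17 ± 0.076 and Rab42 1.61 ± 0.640 (adjusted p = 0.217 and 0.160). For Rab5b the difference was -0.01 ± 0.074, and for Rab5a -0.04 ± 0.089. The calls of Rab4a, Rab19 and Rab20 in resting cells alone are therefore not shown to be particular to that state, their differences being -0.11 ± 0.247, 0.30 ± 0.187 and 0.25 ± 0.126.

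Most Rab genes differed between LPS-treated and resting cells, as did most of all genes tested, and a few differed by at least 2-fold. With siControl, Rab20 and Rab32 rose and Rab4a, Rab19, Rab42, Rab6b and Rab7b fell by at least 2-fold, and 37 of 44 members were called, 24 higher and 13 lower. The background was 68.8% of all genes called, 34.8% higher and 34% lower, with 8.73% higher and 11.7% lower by at least 2-fold. With siEhd1, 25 members were higher and 11 lower, 3 and 3 of them by at least 2-fold, beside 67% of all genes called, 32.9% higher and 34% lower (8.77% and 11.6% by at least 2-fold). The median log2 fold change of the members was 0.16 with siControl and 0.15 with siEhd1, against -0.01 and -0.02 for all genes. The split depends on the scaling. With library totals the median of all genes moved by -0.20 with siControl and by -0.22 with siEhd1. Members then split 13 higher to 15 lower with siControl and 11 to 15 with siEhd1. All genes split 2826 higher to 5860 lower with siControl and 2499 to 6244 with siEhd1 on that scale. The members' median was then -0.03 with siControl and -0.07 with siEhd1, against -0.21 and -0.24 for all genes. With library totals 11 of the siControl calls were lost (Rab5a, Rab5b, Rab21, Rab22a, Rab14, Rab7, Rab29, Rab2a, Rab18, Rab43 and Rab3d) and 14 of the siEhd1 calls (Rab5b, Rab22a, Rab12, Rab14, Rab35, Rab7, Rab29, Rab1b, Rab2a, Rab18, Rab33a, Rab43, Rab3d and Rab8b), all of them rises on the TMM scale. Calls gained with library totals were falls, of Rab13 and Rab8b with siControl and of Rab23, Rab2b, Rab33b and Rab3a with siEhd1.

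The largest rise was that of Rab20, at chr8:11453518-11478710 (minus strand). It had 34.3, 31.8 and 35.9 CPM in LPS-treated siEhd1 libraries, against 4.66, 4.74 and 4.90 in resting siEhd1 libraries, and 37.8, 38.0 and 33.8 in LPS-treated siControl libraries, against 6.16, 5.57 and 6.58 in resting siControl libraries. The states did not come near each other. The log2 fold change was 2.83 ± 0.087 with siEhd1 and 2.58 ± 0.083 with siControl (adjusted p = 7.89e-17 and 1.74e-16). Of its exon bases, 25.6% overlap the antisense transcript E230013L22Rik, which had 3.22 ± 0.372 CPM in LPS-treated and 0.776 ± 0.176 in resting siControl cells, and since the strand setting is not given reads from the overlap cannot be told apart.

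Rab32, at chr10:10545002-10558265 (minus strand), had 215, 227 and 223 CPM in LPS-treated siEhd1 libraries, against 43.6, 45.0 and 44.1 in resting siEhd1 libraries. With siControl it had 245, 228 and 236 CPM after LPS, against 47.3, 45.9 and 49.2 in resting cells. LPS-treated libraries were far above resting ones (2.32 ± 0.052 with siEhd1 and 2.31 ± 0.052 with siControl, adjusted p = 4.23e-19 and 4.43e-19). The promoters of both genes and of Rab19, the most strongly lowered member with an entry among the RefSeq promoter sequences used here, are shown because these genes moved most after LPS. Windows of 300 bases run from 250 before to 50 after RefSeq's transcription start on GRCm38.p6, at chr8:11478591-11478890 (minus strand) for Rab20, chr10:10558158-10558457 (minus) for Rab32 and chr6:39381103-39381402 (plus) for Rab19, with motif matches in capitals.
Rab20: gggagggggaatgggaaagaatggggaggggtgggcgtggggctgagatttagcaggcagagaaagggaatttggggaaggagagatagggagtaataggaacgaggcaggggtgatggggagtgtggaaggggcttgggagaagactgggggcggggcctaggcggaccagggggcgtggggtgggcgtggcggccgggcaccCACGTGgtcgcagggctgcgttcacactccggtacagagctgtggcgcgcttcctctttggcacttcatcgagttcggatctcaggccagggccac
Rab32: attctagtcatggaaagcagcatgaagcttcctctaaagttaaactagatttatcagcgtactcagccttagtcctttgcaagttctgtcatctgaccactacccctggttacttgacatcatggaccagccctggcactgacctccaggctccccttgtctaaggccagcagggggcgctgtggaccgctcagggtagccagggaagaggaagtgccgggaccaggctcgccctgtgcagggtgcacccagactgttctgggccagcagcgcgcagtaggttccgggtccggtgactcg
Rab19: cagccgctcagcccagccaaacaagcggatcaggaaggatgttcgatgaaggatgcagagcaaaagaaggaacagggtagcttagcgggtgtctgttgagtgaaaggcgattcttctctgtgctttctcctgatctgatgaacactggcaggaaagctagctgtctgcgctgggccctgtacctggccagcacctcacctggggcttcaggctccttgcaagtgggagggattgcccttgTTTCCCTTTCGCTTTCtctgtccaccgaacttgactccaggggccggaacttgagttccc

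The windows were searched on both strands for the kappa B motif of NF-kappa B, the paired core of the interferon-stimulated response element, TGANTCA of AP-1 and CACGTG, the E-box. Of the 44 members, 40 had a promoter entry. The Rab20 window held the E-box, which 6 of these 40 members and 7.15% of all 32851 promoters held. The Rab19 window held a pair of overlapping matches to the interferon-stimulated motif, read on the minus strand, a motif in 1 of 40 members and 3.44% of all promoters. The Rab32 window held no match to any of the 4. The kappa B motif was in 1 member, Rab28, and in 4.51% of all promoters, and TGANTCA was in 1 member, Rab34, and in 7.81%. These are matches of letters only.

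Rab4a and Rab19 fell most. Rab4a had 2.46, 2.52 and 2.07 CPM in LPS-treated siEhd1 libraries, against 9.14, 8.28 and 8.30 in resting siEhd1 libraries, and 1.38, 1.74 and 2.14 in LPS-treated siControl libraries, against 5.02, 5.66 and 7.11 in resting siControl libraries. All LPS-treated libraries were lower than all resting ones (-1.86 ± 0.157 with siEhd1 and -1.75 ± 0.172 with siControl, adjusted p = 1.41e-09 and 1.41e-08). Its paralog Rab4b rose (0.48 ± 0.057 with siEhd1 and 0.55 ± 0.057 with siControl), so that Rab4a made up 3.40% ± 0.433 of the counts of both with siEhd1 and 2.47% ± 0.690 with siControl after LPS, against 15.2% ± 0.710 and 11.03% ± 1.97 in resting cells. The Rab4b counts are uncertain, since 85.2% of its exon bases overlap Gm21983 on the same strand. Rab19 had 3.44, 3.39 and 3.61 CPM in LPS-treated siEhd1 libraries, against 10.5, 8.75 and 9.20 in resting siEhd1 libraries, and 3.45, 3.92 and 3.71 against 10.5, 12.6 and 14.0 with siControl. The states were far apart (-1.45 ± 0.131 with siEhd1 and -1.74 ± 0.125 with siControl, adjusted p = 4.34e-09 and 1e-10).

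Rab6b, a Golgi Rab best known from neurons, had 6.34, 7.70 and 5.91 CPM in LPS-treated siEhd1 libraries, against 15.1, 16.6 and 16.4 in resting siEhd1 libraries, and 7.79, 9.27 and 5.90 in LPS-treated siControl libraries, against 18.7, 17.98 and 16.9 in resting siControl libraries. It fell in both (-1.26 ± 0.125 and -1.22 ± 0.120, adjusted p = 2.17e-08 and 1.9e-08), while Rab6a rose (0.45 ± 0.054 and 0.57 ± 0.054). Rab7b had 203, 196 and 178 CPM in LPS-treated siEhd1 libraries, against 360.3, 369.8 and 341 in resting siEhd1 libraries, and 156, 179 and 192 in LPS-treated siControl libraries, against 343, 368 and 382 in resting siControl libraries. The states did not overlap (-0.89 ± 0.069 with siEhd1 and -1.05 ± 0.070 with siControl, adjusted p = 5.21e-10 and 3.91e-11). Rab7b made up 20.3% ± 0.520 of the counts of Rab7 and Rab7b with siEhd1 and 21.1% ± 2.68 with siControl after LPS, against 37.1% ± 0.257 and 38.5% ± 0.557 in resting cells. Rab42 had 0.393, 0.339 and 0.574 CPM in LPS-treated siEhd1 libraries, against 0.470, 0.342 and 0.341 in resting siEhd1 libraries, and 0.148, 0.0991 and 0.190 in LPS-treated siControl libraries, against 0.528, 0.263 and 0.439 in resting siControl libraries. Only with siControl was Rab42 called (-1.45 ± 0.494, adjusted p = 0.0135), at 2 to 12 counts per library, and that call was lost without resting siControl replicate 1 or LPS-treated siControl replicate 2.

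**Figure D4:**
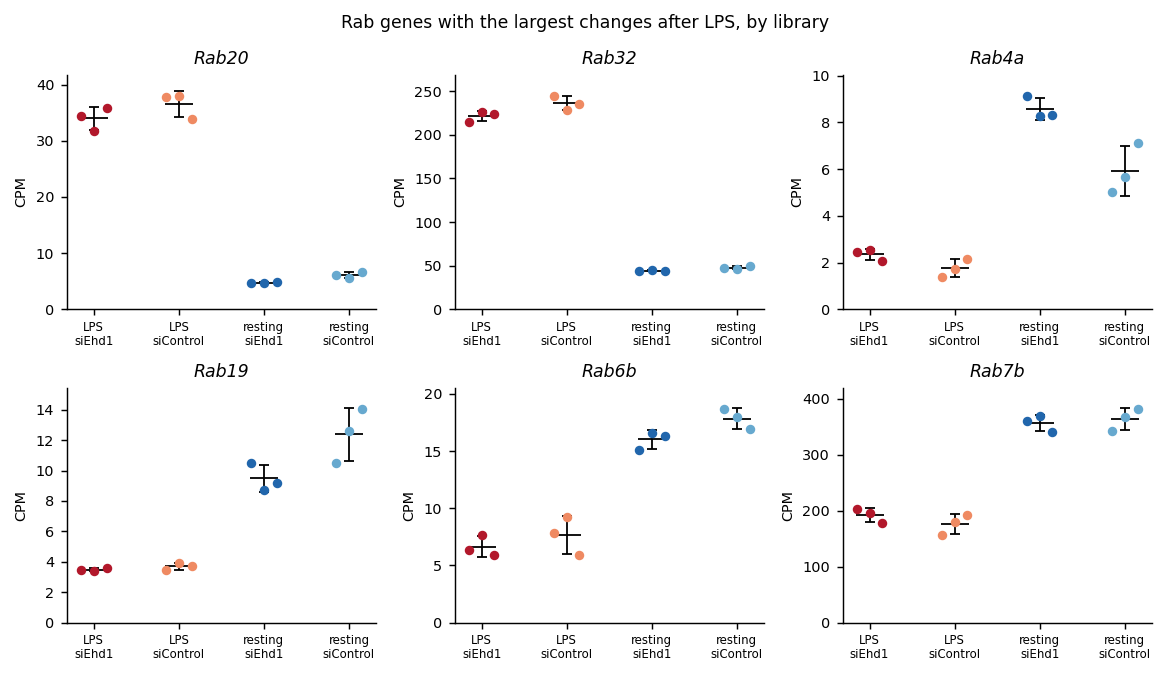
CPM by library of the 6 Rab genes other than the very low Rab42 that were called at 2-fold or more after LPS with siControl, in the 4 groups with siEhd1 left of siControl; points are libraries, and the line and bars are mean and SD of 3. Rab20 (37.8, 38.0 and 33.8 against 6.16, 5.57 and 6.58 CPM with siControl) and Rab32 are higher after LPS, and Rab4a, Rab19, Rab6b and Rab7b are lower.

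The smaller LPS changes were sorted by compartment as follows, with log2 fold changes given for siEhd1 and then for siControl. Early endosomal Rab5c rose by 0.83 ± 0.060 and 0.78 ± 0.060, and held its call with library totals. Rab5a had 0.12 and 0.16, Rab5b 0.14 and 0.15, Rab22a 0.31 and 0.23 and Rab21 0.39 and 0.26. Of these, the called values of Rab5b in both and of Rab5a with siControl turned negative with library totals, Rab22a lost both calls (0.09 and 0.04) and Rab21 had 0.17 and 0.07, the second not called. Rab31 fell by 0.16 and 0.14 (adjusted p = 0.0142 and 0.0266). In the recycling group Rab11a rose (0.55 ± 0.055 and 0.64 ± 0.055) and Rab11b fell (-0.21 ± 0.073 and -0.29 ± 0.073), so that Rab11a made up 45.5% ± 1.04 of the counts of both with siEhd1 and 44.2% ± 1.54 with siControl after LPS, against 33.1% ± 1.30 and 29.3% ± 0.338 in resting cells. Rab12 had 0.21 and 0.38, Rab35 0.26 and 0.30 and Rab14 0.15 and 0.24; with library totals Rab12 and Rab14 turned negative with siEhd1.

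In the late endosomal group, besides Rab32 and Rab7b, Rab7 had 0.31 ± 0.060 and 0.18 ± 0.060, the second of which turned negative with library totals, and Rab29, a relative of Rab32, had 0.25 and 0.21, against 0.023 and 0.017 with library totals, neither called. Rab9, which retrieves cargo from late endosomes to the Golgi, Rab34 and Rab39 fell, by 0.31, 0.21 and 0.59 with siEhd1 and by 0.33, 0.33 and 0.51 with siControl. The siEhd1 call of Rab34 (adjusted p = 0.0424) was lost under 7 of 11 alternatives, DESeq2 and all single-library removals but resting siEhd1 replicate 1 among them. Over all 11 alternatives its log2 fold change was -0.12 to -0.44, the last with library totals, where the call was kept. Between ER and Golgi, Rab1 rose (0.53 ± 0.048 and 0.48 ± 0.049), and Rab1b, Rab2a, Rab18 and Rab43 had 0.13 to 0.27 with siEhd1 and 0.17 to 0.33 with siControl. Of these, Rab18 turned negative with library totals in both, and Rab1b and Rab2a with siEhd1. In exocytosis, Rab10 rose (0.54 ± 0.047 and 0.73 ± 0.047) and so did Rab8a (0.49 ± 0.050 and 0.51 ± 0.050), while Rab3d, a Rab of secretory granules, had 0.19 and 0.15 and turned negative with library totals in both. Rab27a fell with siControl (-0.80 ± 0.228, adjusted p = 0.00425) and had -0.25 ± 0.246 with siEhd1, and Rab8b had 0.14 ± 0.052 with siEhd1, negative with library totals, and -0.08 ± 0.052 with siControl. Of the 5 other members, Rab40c fell by 0.64 and 0.62 and Rab28 by 0.31 and 0.29, while Rab24 rose by 0.45 in both. Rab24 shares 66.4% of its exon bases with Prelid1 on the other strand, which had a log2 fold change of 1.00 with siEhd1 and 1.31 with siControl, so the Rab24 counts are uncertain. Rab2b, Rab3a, Rab23 and Rab33b were not called in either comparison, and nor was Rab13 (0.10 and -0.12). With library totals, however, Rab2b, Rab3a, Rab23 and Rab33b were called lower with siEhd1 (-0.38, -0.46, -0.27 and -0.30). On that scale Rab13 and Rab8b were called lower with siControl (-0.32 and -0.28). Of the exon bases of Rab2b, 70.9% overlap Gm43766 on the other strand. Rab33a, at 1 to 14 counts per library, was called with siEhd1 alone (1.16 ± 0.468, adjusted p = 0.0339). That call was lost under 5 of 11 alternatives, namely DESeq2, library totals and leaving out resting siEhd1 replicate 2 or LPS-treated siEhd1 replicate 1 or 2. Over all 11 alternatives its log2 fold change was 0.67 to 1.73.

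**Figure D5:**
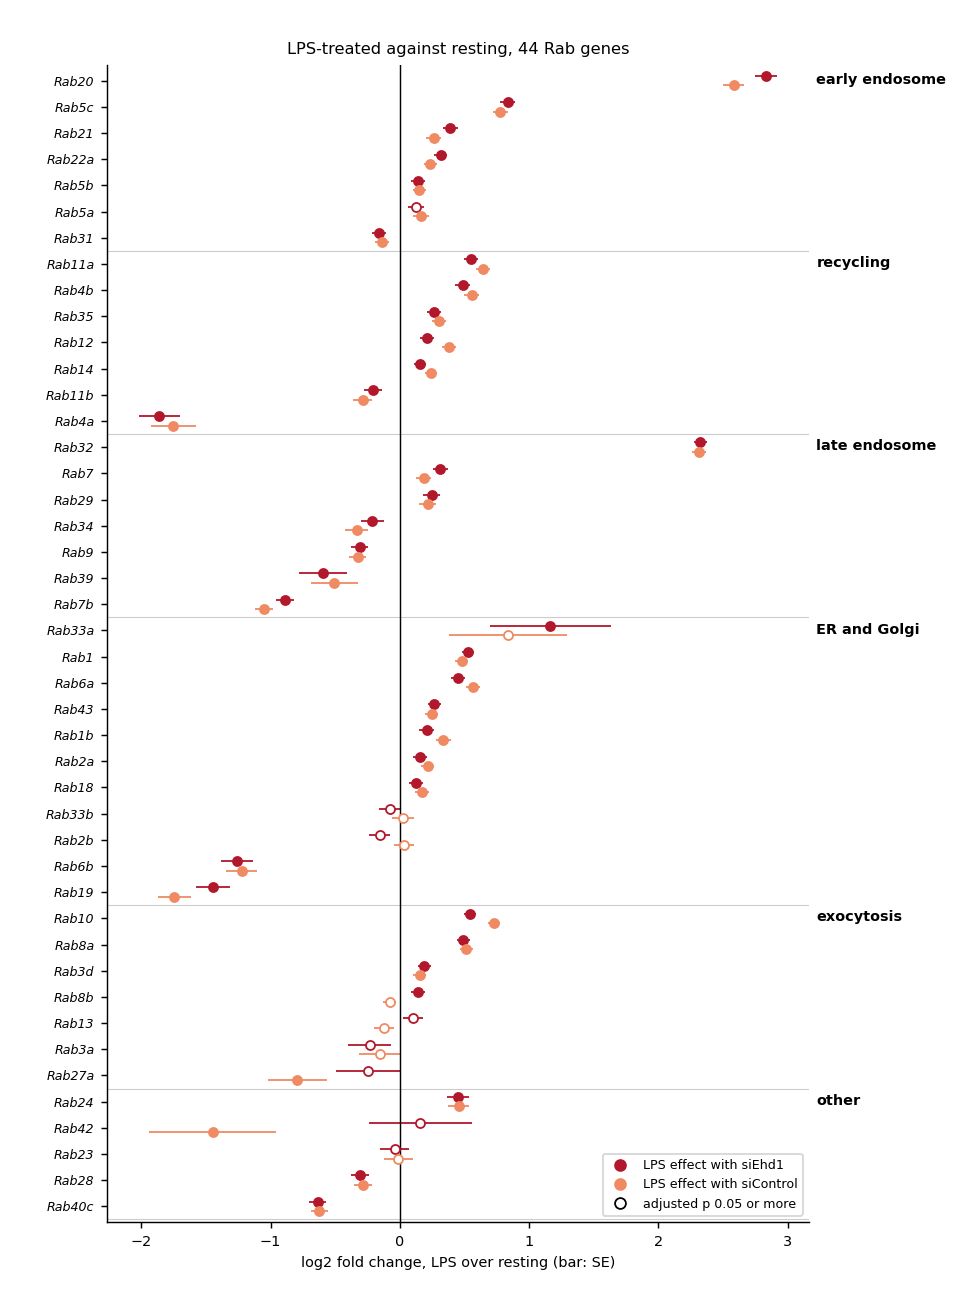
Log2 fold changes of LPS-treated over resting cells with SE for the 44 Rab genes by compartment, the siEhd1 value above the siControl value in each row; filled symbols passed an adjusted p of 0.05. Rab20, at 2.83 and 2.58, and Rab32, at 2.32 and 2.31, stand apart on the right and Rab4a, at -1.86 and -1.75, on the left.

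Genes whose log2 CPM followed Rab20 and Rab4a most closely over the 12 libraries were named as a description, out of 9388 other genes averaging 5 CPM or more. For Rab20 these were Pde4b, which encodes a cAMP phosphodiesterase, Prdx5, which encodes a peroxiredoxin, and 6330416G13Rik, each at a Pearson r of 0.998. For Rab4a they were Emp1, an epithelial membrane protein gene (0.994), Map4k3, a kinase gene (0.993), and Clic4, a chloride intracellular channel gene (0.992). The 12 points fall into LPS-treated and resting clusters and share their libraries, so these values mostly carry the step between the states.

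The proteins that load, switch off, lipidate or read Rabs were followed in a list of 113 genes, of which 106 were tested. With siEhd1, 8 of 106 were lower and 5 higher after LPS, beside 4.1% and 4.44% of all genes, and 27 were lower and 6 higher in resting cells, beside 14.2% and 14%. Their median log2 fold change was -0.03 and -0.08, against -0.0045 and -0.02 for all genes. The same shares of all genes stand beside the counts by role. Effectors counted 5 lower and 0 higher of 32 after LPS and 12 lower and 1 higher in resting cells. Rbsn, the Rab4 and Rab5 effector named above, had 34.7 ± 0.313 CPM with siEhd1 and 44.6 ± 1.29 with siControl after LPS (-0.36 ± 0.060, adjusted p = 0.000582), and 33.6 ± 0.835 and 46.0 ± 3.24 in resting cells (-0.45 ± 0.059, adjusted p = 9.15e-06). The Rab11 effectors Rab11fip3 and Rab11fip1 were lower with siEhd1 than with siControl in LPS-treated cells (-0.46 ± 0.081 and -0.34 ± 0.070, adjusted p = 0.000932 and 0.00351). In resting cells they had -0.40 ± 0.075 and -0.09 ± 0.081 (adjusted p = 0.00042 and 0.458). In resting cells the Rab7 effector Plekhm1 and the myosin motor Myo5a, which Rab-bound adaptors recruit to vesicles, fell (-0.45 ± 0.067 and -0.35 ± 0.052, adjusted p = 3.63e-05 and 4.3e-05). These were the 2 regulators for which the siEhd1 effect differed between the states (0.47 ± 0.095 and 0.27 ± 0.074, adjusted p = 0.00461 and 0.0337). Plekhm1 had 192 ± 6.85 CPM with siEhd1 and 189.8 ± 13.8 with siControl after LPS, and in resting cells 356 to 391 CPM with siEhd1 and 470.3 to 566 with siControl.

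GEFs counted 2 lower and 3 higher of 34 with siEhd1 after LPS and 7 lower and 3 higher in resting cells. Ankrd27, which acts on Rab21 and also binds Rab32, fell in both states (-0.31 ± 0.056 after LPS and -0.35 ± 0.055 in resting cells, adjusted p = 0.00103 and 7.03e-05). Dennd2a and Rab3il1 were higher with siEhd1 in LPS-treated cells (0.57 ± 0.102 and 0.25 ± 0.066). In resting cells Dennd4c, a GEF of Rab10, was lower with siEhd1 (-0.21 ± 0.055) and Dennd2c was higher (0.36 ± 0.0998). GAPs counted 1 lower and 1 higher of 32 after LPS, Tbc1d2b (-0.25 ± 0.053) and Tbc1d9 (0.26 ± 0.063), and 7 lower and 0 higher in resting cells, with Tbc1d24 (-0.22), Rabgap1l (-0.33) and Tbc1d17 (-0.22) at the smallest p. Of the 8 escort and lipidation genes, Chml, a Rab escort protein gene, rose in both states (0.39 ± 0.115 after LPS and 0.38 ± 0.094 in resting cells, adjusted p = 0.0404 and 0.00458). In resting cells Rabggtb, a geranylgeranyl transferase subunit gene, rose (0.29 ± 0.073) and Rabac1, a prenylated Rab acceptor gene, fell (-0.28 ± 0.058). The heptamer lies in a 3′ UTR of 21 of the 106 regulators. It was carried by 7 of the 8 that were lower with siEhd1 in LPS-treated cells, all 5 effectors among them. In resting cells 11 of the 27 lower ones carried it. Those that were higher carried it in 1 of 5 and 1 of 6 cases, and those not called in 13 of 93 and 9 of 73. Over all genes 50.8% of lower genes carried it after LPS and 28.3% in resting cells. The heptamer and the regulator lists were chosen with earlier results of these data known, so these counts are not independent evidence.

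After LPS, 31 of the 106 regulators were higher and 41 lower with siEhd1, beside 32.9% and 34% of all genes, and 31 and 42 with siControl, beside 34.8% and 34%; these shares are near the background. The largest named change was that of Mical1, an actin-oxidising Rab effector, with 8.12 ± 0.434 CPM in LPS-treated and 107 ± 6.05 in resting siEhd1 cells and 7.60 ± 0.723 in LPS-treated and 119.7 ± 3.24 in resting siControl cells (-3.71 ± 0.073 and -3.98 ± 0.073). Rab11fip1 rose (1.60 ± 0.077 with siEhd1 and 1.86 ± 0.076 with siControl) and Plekhm1 fell (-0.95 ± 0.068 and -1.42 ± 0.068). Among GEFs, Ric1, part of a Rab6 exchange complex, rose (1.65 and 1.60), and Rin3, a Rab5-family GEF, and Dennd4c fell (-1.79 and -1.10 with siEhd1, -1.95 and -1.35 with siControl). Among GAPs, Tbc1d9 (1.65 and 1.41) and Tbc1d13, a Rab35 GAP (1.16 and 1.20), rose, and Tbc1d2, a Rab7 GAP, fell (-1.36 and -1.44). Of the escort and lipidation genes, Rabggta rose (0.79 and 0.66) and Chml fell (-0.92 and -0.93), while Rabif, a Rab chaperone gene, rose (0.38 and 0.43) and Chm, another escort gene, fell (-0.43 and -0.30). The adjusted p of these LPS calls is at most 0.000259.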

How the data were processed

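PolyA-enriched bulk RNA-seq of 12 libraries was used. The authors deposited raw counts per gene in 2 tables, 1 for resting and 1 for LPS-treated libraries; the submitters' processing notes list mm10 as the build, STAR 2.7.6a and featureCounts 2.20.0 among the tools, beside Trim Galore 0.6.3 and others. Which annotation and strand setting were counted with, and how reads shared by genes were treated, is not given in those notes. The tables were joined and tested in R 4.3.3 with edgeR 4.0.16: filterByExpr by group (minimum count 10, minimum total 15) kept 12164 of the 17270 genes with a count, the removed genes held at most 0.0394% of a library, and TMM factors and a robust quasi-likelihood F test with 1 mean per group gave 8 residual degrees of freedom. Adjusted p-values are Benjamini-Hochberg over all 12164 genes, with a threshold of 0.05, and SEs were taken as the log2 fold change's size divided by the square root of F. The test was tried on simulated counts first. Chi-square per degree of freedom between libraries of a group was 3.00 to 23.6, so none looked like a repeat of another.

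The members, compartments, regulator lists and heptamer were chosen with earlier results of these data known. Values in every library are given for members called with siEhd1 at a log2 fold change of 0.3 or more in size, those called after LPS with siControl at 1 or more, and the 3 highest per kilobase; Rab8b, which was above Rab1b in resting siControl cells, was added after its values were seen. Regulators named are up to 3 called per list and comparison with the smallest p. Gene models and 3′ UTRs are GENCODE vM21 (GRCm38; the table's Rab1 is Rab1a there), promoters RefSeq. DESeq2 1.42.0, other scalings and filters, replicate blocks and leaving out each library were alternatives; library totals without TMM factors were added after the data were seen. Interval widths and SEs cover the spread between 3 libraries per group only.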

Additional observations from a re-analysis of the deposited data

How the results depend on the processing

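With 3 libraries a group, single libraries moved the counts of small siEhd1 changes. Members called in resting cells numbered 1 to 4 higher and 4 to 9 lower when 1 library at a time was left out; higher fell to 1 without siControl replicate 1 or 2 or siEhd1 replicate 2, and lower to 4 without siControl replicate 3 or siEhd1 replicate 1. After LPS they numbered 0 to 1 higher and 1 to 4 lower, with Rab22a lost without any 1 library but siControl replicate 3, 2 lower without siControl replicate 1 or siEhd1 replicate 1 and 1 lower without siControl replicate 2 or siEhd1 replicate 3. In resting cells Rab4a, Rab5b, Rab8b and Rab43 kept their calls under all 13 alternatives, and after LPS Rab5b did. For siEhd1 against siControl in LPS-treated cells, higher calls were 2 by DESeq2. They were 0 without the low-count filter, with the 6 LPS-treated libraries alone, and under either block. Lower calls in that comparison were 1 with those 6 libraries alone. For the difference between states, DESeq2 called 1 member higher and library totals 1 lower. With library totals in place of TMM factors the LPS comparison called 13 members higher with siControl and 11 with siEhd1. Of all 12164 genes, 2826 and 2499 were called higher on that scale. On TMM-scaled library sizes Rab genes took 0.5375% of counts in LPS-treated siEhd1, 0.5362% in LPS-treated siControl, 0.451% in resting siEhd1 and 0.4627% in resting siControl libraries. The cause of these shifts was not tested. Depth limits Rab33a and Rab42, at 1 to 14 counts per library, whose log2 fold changes had SEs of 0.39 to 0.66 over all 5 comparisons.

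Same-numbered libraries did not deviate together as a set (correlations -0.22 to 0.25, 2 of 18 pairs over 0.1). Deviations from a mean of 3 libraries cannot settle whether a number stands for a shared animal, culture or day, and the labels do not say. With the replicate number as a block over all 12 libraries, siEhd1 against siControl in LPS-treated cells gave 0 higher calls. With the block within each table that comparison gave 0 higher and 1 lower (Rab5b). In resting cells Rab10 lost its call under both blocks, and Rab13 and Rab20 (-0.35) under the block within the table; after LPS Rab22a and Rab43 lost theirs under both, and Rab5a and Rab31 within the table.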
